A study of Mus musculus with 6 samples.

Results

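A total of 10 transcription factor genes of the mouse oocyte were followed in germinal vesicle (GV) oocytes with and without Zar1. The genes are Nobox, Figla, Lhx8, Sohlh1, Sohlh2, Foxo3, Foxr1, Taf4b, Gtf2a1l and Tbpl2. They were listed by name, matched by the symbol of their Ensembl identifier, and are 10 of 53700 gene rows in the count tables. ZAR1 is an RNA-binding protein of the oocyte, and the series concerns how oocytes hold mRNA in a compartment beside their mitochondria. PolyA RNA was sequenced from 3 libraries of Zar1 knockout oocytes (titled Zar -/-) and 3 libraries of wild-type oocytes (titled Zar +/+), each made from a pool of 10 GV oocytes and all on a C57BL/6N background. No treatment is named. The sources used here do not give the age of the mice, the part of Zar1 that was deleted or whether a pool came from 1 animal. The titles number the libraries of each genotype as biological replicates (biol rep) 1 to 3, without saying what separates them. The p-values therefore rest on how far pools differ, which may be technical.

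Oocyte differentiation rests on a small set of germ-cell transcription factors. SOHLH1, SOHLH2 and FIGLA are basic helix-loop-helix (bHLH) proteins that bind E-boxes, LHX8 and NOBOX carry a homeodomain, and mice that lack one of them lose oocytes around the formation or first growth of follicles. FOXO3 is the forkhead factor that holds primordial follicles dormant until phosphoinositide 3-kinase signalling moves it out of the nucleus. TBPL2, GTF2A1L and TAF4B belong to the basal machinery and stand in, in germ cells, for TBP, the large TFIIA subunit and TAF4. In a GV oocyte near the end of growth transcription falls silent, so the level of an mRNA also depends on how long it is stored.

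Gene counts summed to between 35066851 and 37946223 in the knockout libraries and between 32126555 and 39148833 in the wild-type libraries. Levels are given as CPM, the usual unit of counts over library size, with library sizes scaled by TMM factors, so each is a share of its library. The median log2 fold change of 16473 tested genes was 0.00745. Zar1 itself had 1.98, 2.58 and 6.18 CPM in the knockout libraries, against 379, 386 and 395 CPM in the wild-type libraries, so the libraries matched their labels (log2 fold change -6.75 ± 0.36 SE, edgeR adjusted p = 1.15e-05). Its relative Zar1l averaged 180.0 ± 11.9 CPM in knockout and 123 ± 11 CPM in wild type and was called higher (adjusted p = 0.00194). All 12 oocyte markers, among them the zona genes, Gdf9, Bmp15 and Ooep, were measured. In knockout 7 were higher, 1 was lower and 4 did not pass, where 14.9% of all tested genes were called higher and 18.5% lower. The median log2 fold change of these markers was 0.333. Their summed level was 24847 to 27237 CPM in knockout and 22686 to 24227 CPM in wild type. Of 14 granulosa and cumulus markers 2 were higher in knockout (Nr5a2 and Has2), 1 was lower (Kitl), 6 did not pass and 5 were too low to test. Their summed level was 129.6 to 137 CPM in knockout and 108 to 119 CPM in wild type. Most of that sum came from Nr5a2, with 77.9 ± 5.50 CPM in knockout and 51.8 ± 3.17 CPM in wild type (adjusted p = 0.00143), and from Cyp19a1, the aromatase gene, with 42.9 ± 7.72 CPM in knockout and 47.8 ± 5.72 CPM in wild type (adjusted p = 0.447). Foxl2 and Amh had at most 7 counts in any library and Tnfaip6 had 0 in all. Fshr had 47 counts in knockout replicate 2 and at most 8 elsewhere. Other markers had more counts and were uneven. Cyp11a1 had 67, 38 and 224 counts in the knockout libraries and 118, 98 and 59 in the wild-type libraries. Hsd17b1 had 33, 64 and 149 counts in knockout and 100, 153 and 26 in wild type. Knockout replicate 3 stood somewhat apart. A chi-square statistic over genes, divided by its degrees of freedom (1 where libraries differ by counting noise alone), was 32.6 and 39.9 for its pairs with the other knockout libraries, 20.6 for knockout replicates 1 and 2, and 12.8 to 18.4 for pairs of wild-type libraries.

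Of the 10 transcription factor genes, 5 rose in Zar1 knockout oocytes, none fell, 4 did not pass the test and 1, Sohlh1, was too low to test. Nobox rose most, followed by Figla, Gtf2a1l, Foxr1 and Lhx8, with fold changes between 1.22 and 2.67. Taf4b, Tbpl2, Foxo3 and Sohlh2 did not pass. Calls were made with the quasi-likelihood test of edgeR, at 0.05 after Benjamini-Hochberg adjustment over all tested genes, and 33.4% of genes were called, 14.9% as higher and 18.5% as lower. No member was lower at an unadjusted p below 0.05 either, and none was lower in DESeq2 or limma-voom. The 9 tested members had a median log2 fold change of 0.29, all 9 being above 0. Sohlh2 and Tbpl2 turned negative when some single libraries were left out. In 7 of the 9 every knockout library lay above every wild-type library, an arrangement shown by 22.2% of all tested genes; in either direction the groups did not overlap in 47.8% of them. The part played by the granulosa markers and by knockout replicate 3 in the members' values was not tested beyond leaving out each library in turn, which kept all 5 rises. These counts describe the genes and carry no test of the list. When the test was made against a 1.5-fold change, Nobox alone passed.

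**Figure D1:**
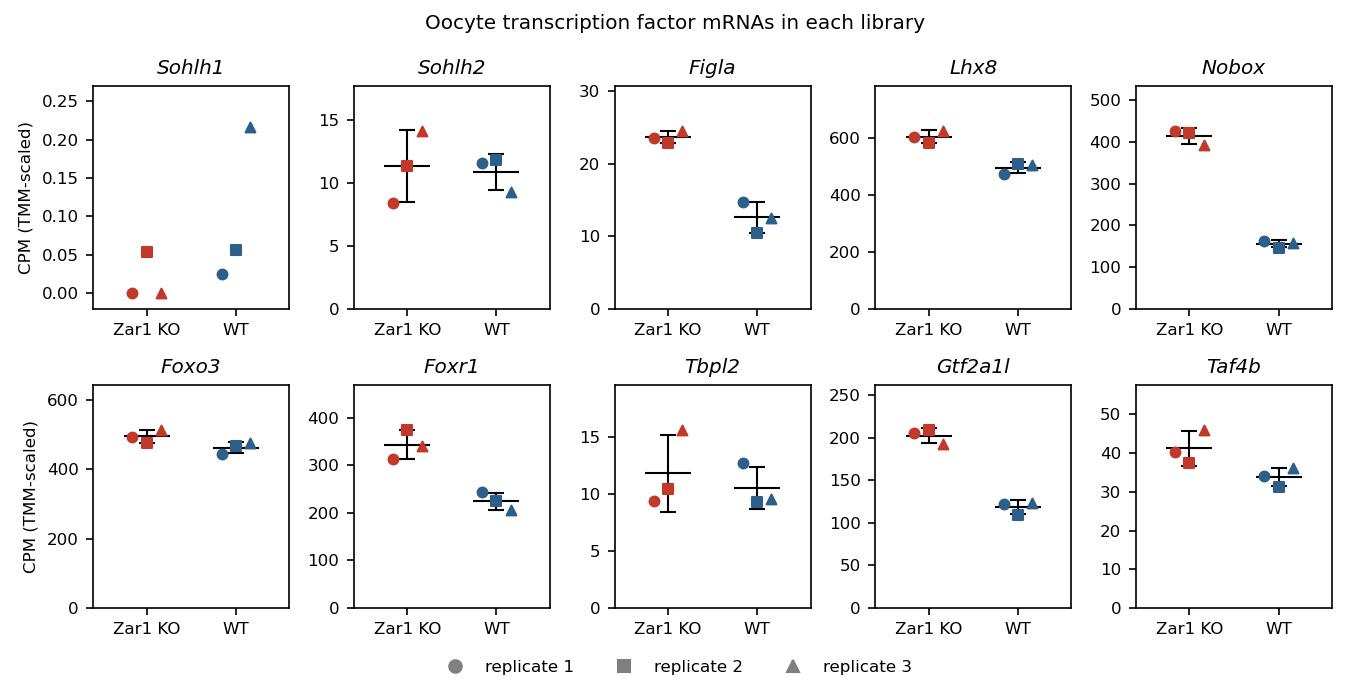
Level of each transcription factor mRNA in each library, in CPM on linear axes that start at 0 (just below 0 for Sohlh1, so that its empty libraries show), with knockout libraries left and wild-type libraries right. Points are libraries, and bars are mean and SD of 3 libraries (left out for Sohlh1). Nobox, Figla, Gtf2a1l, Foxr1, Lhx8, Foxo3 and Taf4b show no overlap between the groups, while Sohlh2 and Tbpl2 do overlap.

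**Figure D2:**
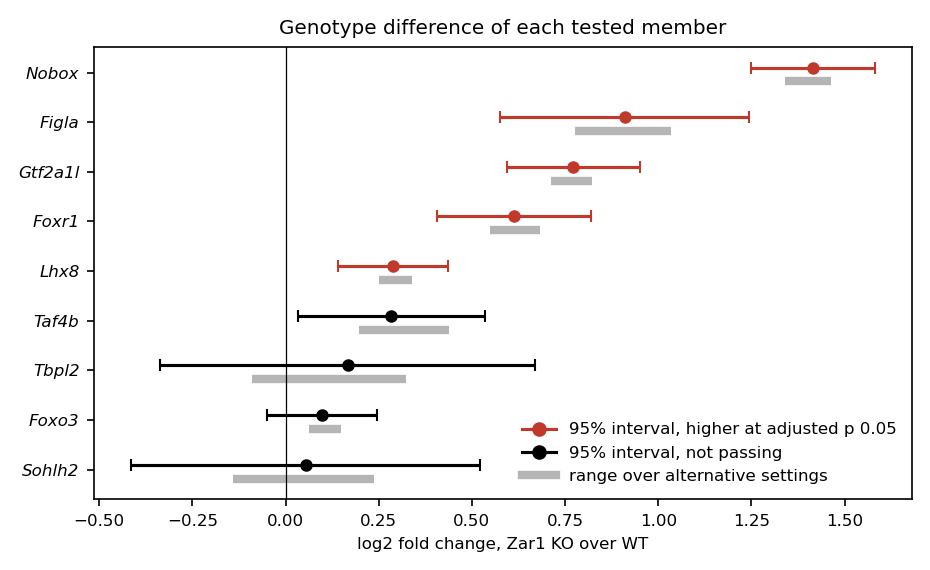
Log2 fold change of the 9 tested members, Zar1 knockout over wild type, with its 95% interval from the edgeR fit. Grey bars give the range over the alternative settings. The 5 red members passed at an adjusted p of 0.05, with Nobox at 1.41 and Lhx8 at 0.29.

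The sequences before the start sites of Nobox, Figla and Gtf2a1l, the 3 members with the largest rises, and of Sohlh1, the member near 0 counts, are shown because the bHLH members of the list bind E-boxes. Each is the 250 bases before the start that RefSeq annotates (build GRCm38.p6, while the counts were made on mm39), read 5′ to 3′ on the strand of the gene, at chr6:43309555-43309804 (minus strand) for Nobox, chr6:86016941-86017190 (plus) for Figla, chr17:88668410-88668659 (plus) for Gtf2a1l and chr2:25847249-25847498 (minus) for Sohlh1. Capitals mark E-boxes (CANNTG).
Nobox: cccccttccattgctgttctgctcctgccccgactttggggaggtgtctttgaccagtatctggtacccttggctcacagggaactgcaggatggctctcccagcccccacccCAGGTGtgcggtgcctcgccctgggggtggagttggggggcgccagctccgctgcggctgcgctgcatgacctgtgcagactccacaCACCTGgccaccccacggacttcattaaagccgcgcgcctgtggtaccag
Figla: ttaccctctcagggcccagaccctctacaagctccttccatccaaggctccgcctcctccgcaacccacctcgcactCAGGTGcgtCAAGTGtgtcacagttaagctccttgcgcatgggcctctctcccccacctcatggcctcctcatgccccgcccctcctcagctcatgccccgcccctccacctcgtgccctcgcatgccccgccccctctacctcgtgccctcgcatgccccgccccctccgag
Gtf2a1l: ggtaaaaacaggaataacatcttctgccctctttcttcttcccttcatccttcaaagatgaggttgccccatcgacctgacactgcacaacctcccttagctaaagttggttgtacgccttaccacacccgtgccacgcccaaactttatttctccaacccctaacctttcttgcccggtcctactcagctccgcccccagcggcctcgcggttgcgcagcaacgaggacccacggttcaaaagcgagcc
Sohlh1: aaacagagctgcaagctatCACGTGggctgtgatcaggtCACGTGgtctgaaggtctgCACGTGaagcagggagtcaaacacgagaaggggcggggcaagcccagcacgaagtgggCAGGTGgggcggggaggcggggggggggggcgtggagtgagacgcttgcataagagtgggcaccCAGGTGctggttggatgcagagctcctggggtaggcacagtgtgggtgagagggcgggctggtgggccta

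RefSeq promoters were at hand for 9 of the 10 members. An E-box stood in 6 of these 9, against 66.2% of 32851 promoters in the table. The windows of Nobox, Figla and Foxr1 held 2 each, that of Tbpl2 held 4, that of Sohlh1 held 5 and that of Sohlh2 held 1, while those of Gtf2a1l, Lhx8 and Foxo3 held none. In Sohlh1 3 of the 5 were CACGTG, a form (and a subset of CANNTG) found in 6.02% of promoters. The Nobox pair began 137 and 50 bases before the start, and the Figla pair began 173 and 164 bases before it. No member's window held the NOBOX elements TAATTG (7.17% of promoters) or TAATTA (4.84%), the LHX8 element TGATTG (12.7%), the FOXO element TTGTTTAC (1.07%) or TATAAA (12.4%), all read on both strands. The members' windows had a median GC content of 64.4%, against 52.4% over all promoters, while these absent elements are mostly A and T. Whether this bears on their absence was not tested. A match is only a run of letters, and no binding was measured here.

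Nobox, the oocyte homeobox gene needed for growth beyond the primordial follicle and for Gdf9 and Bmp15 expression, showed the clearest difference. Nobox (ENSMUSG00000029736.16) had 427, 422 and 393 CPM in the knockout libraries, against 161, 146 and 158 CPM in the wild-type libraries. The lowest knockout library was far above the highest wild-type one, and within each genotype the libraries lay close together. The fold change was 2.67 (log2 1.41 ± 0.07 SE, edgeR adjusted p = 1.15e-05). By p-value Nobox ranked 19 among the tested genes. Counting Nobox, 515 tested genes had a log2 fold change at or above its own, and 411 of these were called. Among 676 tested genes with a wild-type level per kilobase at least that of Nobox, a single other gene had a log2 fold change as large, the mitochondrial ribosomal RNA mt-Rnr1 (1.57 ± 0.16 SE), named here after its value was seen. These reads come from bulk pools, in which more oocytes with the mRNA and more mRNA per oocyte cannot be told apart. They are also reads of polyA RNA, given as shares of a library. The length of poly(A) tails was not measured, so its part in any rise or fall was not tested.

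Lhx8, the LIM-homeodomain gene that oocytes need to survive the first stages of follicle growth, was the most abundant member and differed modestly. Lhx8 (ENSMUSG00000096225.8) had 605, 583 and 626 CPM in knockout, against 473, 508 and 504 CPM in wild type. The groups did not overlap, although they differed by only 1.22-fold (log2 0.29 ± 0.07 SE, adjusted p = 0.00911). The difference was nearer to the threshold without wild-type replicate 1, with an adjusted p of 0.0474.

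**Figure D3:**
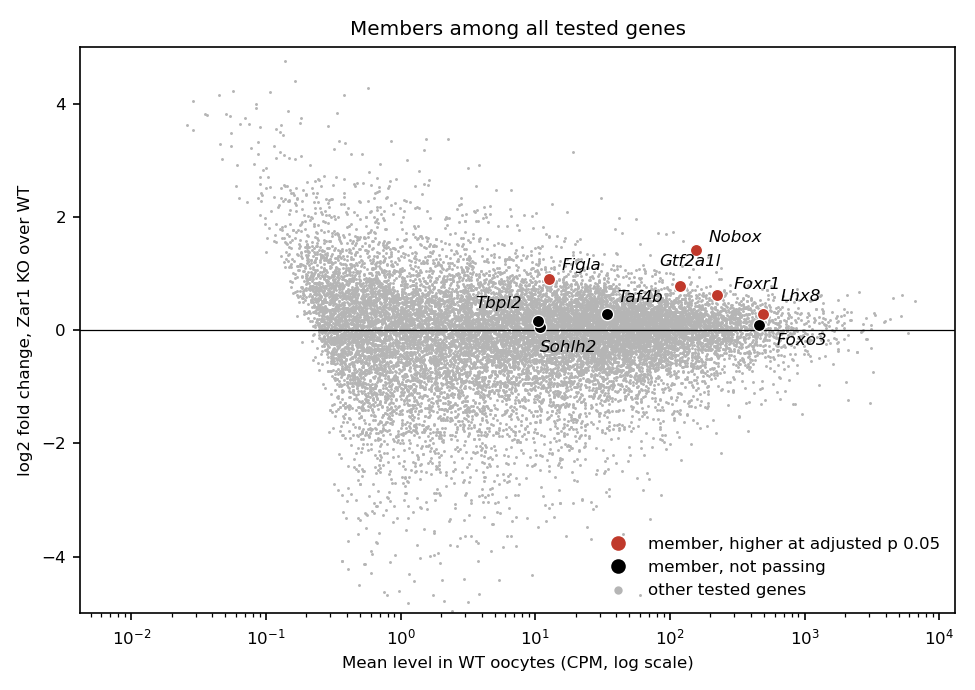
Log2 fold change of Zar1 knockout over wild type against mean wild-type level in CPM (log axis) for the tested genes, with the members named. A total of 15 tested genes lie beyond the axes (5 log2 units, or 0 in wild type). Nobox, at 155 CPM and 1.41, lies at the upper edge of genes of its level.

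Among the bHLH factors Figla rose and Sohlh2 did not pass. FIGLA pairs with an E protein to activate the zona pellucida genes. Figla (ENSMUSG00000030001.5) had 23.6, 22.9 and 24.6 CPM in knockout, against 14.8, 10.5 and 12.5 CPM in wild type. Its knockout libraries were nearly alike and all above the wild-type libraries, which spread more widely. Figla rose 1.88-fold (log2 0.91 ± 0.15 SE, adjusted p = 0.00183). Sohlh2 (ENSMUSG00000027794.5), which acts with SOHLH1 in the oocytes of early follicles, had 8.45, 11.3 and 14.2 CPM in knockout, against 11.6, 11.9 and 9.24 CPM in wild type. The groups overlapped, and knockout replicate 3 was 1.68 times knockout replicate 1. The log2 fold change was 0.05 with a 95% interval of -0.41 to 0.52 (adjusted p = 0.868), and it was -0.14 without knockout replicate 3 and -0.06 without wild-type replicate 3.

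Sohlh1 mRNA was close to absent from both genotypes. Sohlh1 (ENSMUSG00000059625.7) had 0, 2 and 0 counts in the knockout libraries and 1, 2 and 7 in the wild-type libraries. A library with 0 counts allows up to 3, which is 0.0856 CPM in the smallest knockout library. The summed counts, 2 in knockout and 10 in wild type, gave a wild-type to knockout ratio of 5.17 with a 95% exact interval of 1.10 to 48.5. That interval covers counting error only, and 7 of the 10 wild-type counts came from replicate 3. With no filter on low counts the edgeR adjusted p was 0.369, so a difference was not detectable at this depth.

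Of the forkhead genes Foxr1 rose and Foxo3 did not pass. Foxr1, for which a maternal role in the egg is known from zebrafish, had 314, 375 and 339.8 CPM in knockout, against 243, 224 and 205 CPM in wild type. The 3 knockout libraries all lay above the wild-type libraries. Foxr1 (ENSMUSG00000074397.6) rose 1.53-fold (log2 0.61 ± 0.09 SE, adjusted p = 0.00119). Foxo3 (ENSMUSG00000048756.12) had 493, 477 and 514 CPM in knockout, against 444, 467 and 475 CPM in wild type. Every knockout library was above every wild-type library, but by little. The log2 fold change was 0.10 with a 95% interval of -0.05 to 0.25 (adjusted p = 0.282). Whether Foxr1 and Foxo3 differ in their response was not tested.

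Of the germ-cell members of the basal machinery, Gtf2a1l rose and Taf4b and Tbpl2 did not pass. Gtf2a1l (ENSMUSG00000024154.12), the germ-cell form of the large TFIIA subunit, had 206, 209.6 and 192 CPM in knockout, against 123, 109 and 124 CPM in wild type. All knockout libraries were above all wild-type libraries. The gene rose 1.71-fold (log2 0.77 ± 0.08 SE, adjusted p = 0.00018). Taf4b (ENSMUSG00000054321.8), a TFIID subunit that mice need to keep their oocyte reserve, had 40.3, 37.3 and 46.0 CPM in knockout, against 34.2, 31.4 and 36.1 CPM in wild type. The groups did not overlap, by a narrow margin. Its log2 fold change of 0.28 (95% interval 0.03 to 0.53) had an adjusted p of 0.0804, and it passed with offsets for GC content and length, called GC offsets from here on (0.44, adjusted p = 0.016), in DESeq2 (adjusted p = 0.0495) and without knockout replicate 2 (0.0485). Tbpl2 (ENSMUSG00000061809.9), the TBP relative that takes the place of TBP in growing oocytes, had 9.33, 10.5 and 15.6 CPM in knockout, against 12.7, 9.31 and 9.55 CPM in wild type. The groups overlapped, with knockout replicate 3 highest at 1.67 times knockout replicate 1. The log2 fold change was 0.17 with a 95% interval of -0.34 to 0.67 (adjusted p = 0.606), and -0.09 without knockout replicate 3.

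Levels can be set beside each other between genes once divided by exonic length. On the scale of CPM per kilobase, Lhx8 stood first in knockout at 239 ± 8.61 (SD, n = 3) and in wild type at 196 ± 7.50. Nobox was second in knockout at 206 ± 9.21, and in wild type it came after Foxr1, at 77.2 ± 4.05. Foxr1 had 149.6 ± 13.3 in knockout and 97.8 ± 8.16 in wild type. Gtf2a1l followed with 107 ± 4.82 in knockout and 62.8 ± 4.25 in wild type, and Foxo3 with 65.3 ± 2.45 and 61.0 ± 2.16 in the same order. The libraries of Gtf2a1l and Foxo3 overlapped in wild type but not in knockout. Figla had 28.3 ± 1.03 in knockout and 15.1 ± 2.55 in wild type, Tbpl2 8.56 ± 2.43 and 7.62 ± 1.36, Taf4b 8.01 ± 0.859 and 6.58 ± 0.457, and Sohlh2 4.79 ± 1.21 and 4.61 ± 0.607. Tbpl2 and Taf4b overlapped in both genotypes. The exchange of places between Nobox and Foxr1 was the single change of order. Exonic lengths are unions over all annotated transcripts, so a gene with long rare isoforms reads low on this scale.

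Spread between knockout libraries was uneven among the members. The SD was 3.60% to 4.49% of the mean in knockout for Lhx8, Figla, Foxo3, Nobox and Gtf2a1l, and 8.89% for Foxr1 and 10.7% for Taf4b. It was 25.3% for Sohlh2 and 28.4% for Tbpl2, against 13.2% and 17.8% in wild type. Knockout replicate 3 was the highest knockout library in 6 of the 9 tested members, the exceptions being Nobox, Foxr1 and Gtf2a1l. Together the 10 members made up 2127, 2148 and 2166 CPM in the knockout libraries and 1517, 1517 and 1535 CPM in the wild-type libraries. Without Nobox the sums averaged 1733 ± 36.8 CPM in knockout and 1368 ± 10.6 CPM in wild type (SD, n = 3).

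Among the paralogs set against members as ratios, Gtf2a1, Tbp and Foxo1 fell and Taf4 did not pass. Gtf2a1, the large TFIIA subunit of most cells, fell, with 121, 107 and 113 CPM in knockout against 153, 172 and 153 CPM in wild type (log2 fold change -0.49 ± 0.08 SE, adjusted p = 0.00224). With the GC offsets the difference was -0.25 (adjusted p = 0.0447). The ratio of Gtf2a1l to Gtf2a1, in CPM per kilobase, was 5.65, 6.46 and 5.63 in the knockout libraries, against 2.65, 2.10 and 2.67 in the wild-type libraries. The ratio was thus 2.40 times as high in knockout and did not overlap, with an exact two-sided permutation p of 0.1, the smallest that 3 against 3 libraries allow (0.2 adjusted over 4 ratios). A ratio within a library does not depend on scaling factors, but it can carry differences linked to GC content and length. No ratio was computed with the GC offsets. With those offsets Gtf2a1l had a log2 fold change of 0.76, against 0.77 in the main fit. Tbp, the TATA-binding protein gene, averaged 131 ± 3.48 CPM in knockout and 165 ± 8.14 CPM in wild type (log2 fold change -0.33 ± 0.07 SE, adjusted p = 0.00832), but with the GC offsets the difference was -0.08 (adjusted p = 0.4218). The ratio of Tbpl2 to Tbp was 0.686, 0.808 and 1.16 in knockout, against 0.801, 0.534 and 0.563 in wild type, and overlapped (exact permutation p = 0.2). Its absolute size rests on an annotated exonic length of 13576 bases for Tbp. Taf4 had 117 ± 6.503 CPM in knockout and 115 ± 9.10 CPM in wild type (adjusted p = 0.873), and Taf4b over Taf4 was 0.292, 0.293 and 0.371 in knockout, against 0.263, 0.229 and 0.308 in wild type (exact permutation p = 0.3), with overlap.

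Foxo1, the forkhead paralog of Foxo3, fell while Foxo3 did not pass. Foxo1 had 274, 262 and 216 CPM in the knockout libraries, against 402, 392.3 and 392.4 CPM in the wild-type libraries. All knockout libraries were below all wild-type libraries (log2 fold change -0.66 ± 0.09 SE, adjusted p = 0.000872). The ratio of Foxo3 to Foxo1, in CPM per kilobase, was 2.06, 2.08 and 2.72 in knockout, against 1.26, 1.36 and 1.39 in wild type. It was 1.70 times as high in knockout without overlap (exact permutation p = 0.1, the smallest possible, 0.2 after adjustment).

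**Figure D4:**
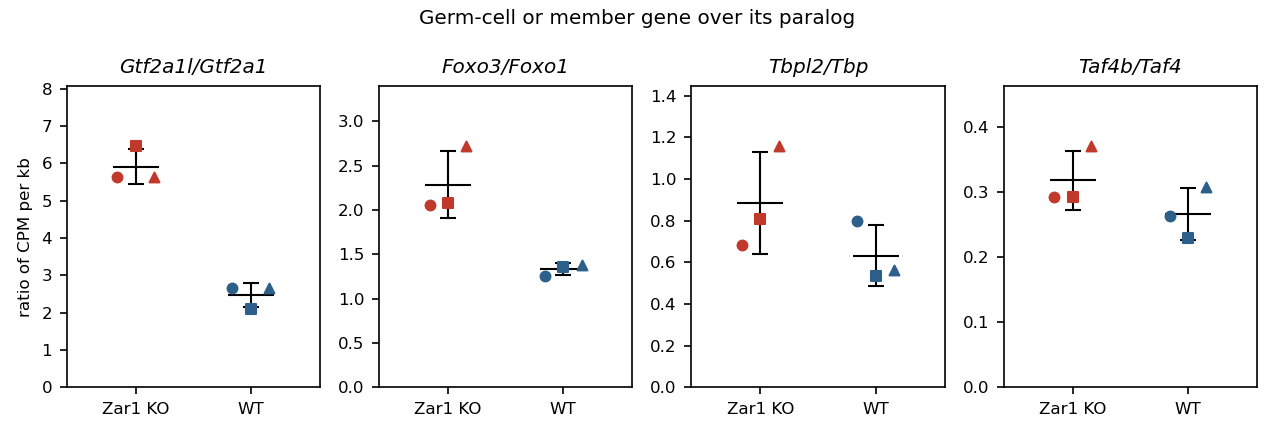
Ratio of a member to its paralog in each library, both in CPM per kilobase of exon. Axes are linear from 0, with knockout left and wild type right. Points are libraries, and bars are mean and SD of 3. Gtf2a1l over Gtf2a1 is 5.63 or more in knockout and 2.67 or less in wild type, Foxo3 over Foxo1 also shows no overlap, and the other pair of ratios overlap.

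The genes whose level across the 6 libraries most resembled that of Nobox came from several families. Likeness was measured as the mean absolute difference in log2 CPM, centred on each gene's mean over the 6 libraries, among 7231 genes with a mean of at least 10 CPM. Ppp4r1, a regulatory subunit of protein phosphatase 4, was nearest at 0.05, with 103 ± 8.70 CPM in knockout and 40.8 ± 3.79 CPM in wild type. Irf3, an interferon regulatory factor, followed at 0.068, with 56.1 ± 1.47 CPM in knockout and 19.7 ± 2.33 CPM in wild type. Gapdh (0.084), the LIM-only gene Lmo3 (0.085) and the signalling adaptor gene Bcl10 (0.09) came next. Gapdh has many processed copies in the genome, so its count is uncertain. As Nobox varied mainly between genotypes, the measure picks genes with a like genotype difference.

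Genes reported in mice to depend on NOBOX, FIGLA, LHX8, SOHLH1 or SOHLH2 moved in both directions. Of 13 such genes tested, 6 rose, 2 fell and 5 did not pass, where 14.9% of all tested genes were called higher and 18.5% lower. Their median log2 fold change was 0.17 (0.04 with the GC offsets). The zona genes rose together. Zp3, which encodes a protein of the zona, averaged 2010 ± 56.0 CPM in knockout and 1314 ± 117 CPM in wild type (log2 fold change 0.61 ± 0.08 SE, adjusted p = 0.000465). Zp2 averaged 1822 ± 157 CPM in knockout and 1226 ± 117 CPM in wild type (adjusted p = 0.00178), and Zp1 461 ± 20.4 CPM in knockout and 339 ± 28.5 CPM in wild type (adjusted p = 0.00302). Padi6, a component of the oocyte cytoplasmic lattices, averaged 3217 ± 124 CPM in knockout and 2079 ± 154 CPM in wild type (log2 fold change 0.63 ± 0.07 SE, adjusted p = 0.000302). The oocyte linker histone H1foo and Fgf8 completed the rises, and Fgf8 did not pass with the GC offsets (0.25, adjusted p = 0.134). Lin28a, an RNA-binding regulator of let-7, fell, with 52.0 ± 6.64 CPM in knockout and 81.9 ± 2.68 CPM in wild type (log2 fold change -0.66 ± 0.11 SE, adjusted p = 0.00175).

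Of the growth factor genes named as NOBOX targets, Gdf9 did not pass and Bmp15 was called lower. Gdf9 averaged 3274 ± 395 CPM in knockout and 3087 ± 149.7 CPM in wild type (adjusted p = 0.515). Bmp15 averaged 2481 ± 292 CPM in knockout and 3104 ± 221 CPM in wild type (log2 fold change -0.32 ± 0.09 SE, adjusted p = 0.0281). That call was lost with the GC offsets (adjusted p = 0.288), with upper-quartile scaling (0.0588) and without any of wild-type replicates 2 and 3 and knockout replicates 1 and 2 (0.0764 to 0.106). Pou5f1, Mos, Rfpl4 and Kit did not pass either.

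The other factors that have been used with Figla, Sohlh1, Lhx8, Nobox and Tbpl2 to make oocyte-like cells split. Dynll1, a dynein light chain gene, rose, with 176 ± 4.41 CPM in knockout and 137 ± 9.45 CPM in wild type (log2 fold change 0.36 ± 0.08 SE, adjusted p = 0.00704). Sub1, a transcriptional coactivator gene, fell, with 481 ± 40.3 CPM in knockout and 620.1 ± 20.3 CPM in wild type (log2 fold change -0.37 ± 0.08 SE, adjusted p = 0.00641), but it did not pass with the GC offsets (-0.14, adjusted p = 0.167). Stat3 had an adjusted p of 0.0594 and did not pass.

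The somatic preinitiation machinery also moved in both directions. Of 24 genes 23 were tested, of which 8 rose, 4 fell and 11 did not pass. Over all tested genes 14.9% were called higher and 18.5% lower. The median log2 fold change of the list was 0.12. The TFIID subunit gene Taf7 fell, with 64.9 ± 5.99 CPM in knockout and 130.3 ± 8.38 CPM in wild type (log2 fold change -1.004 ± 0.09 SE, adjusted p = 0.000118). Taf11, whose product meets TFIIA, fell too, with 20.3 ± 0.452 CPM in knockout and 37.8 ± 1.99 CPM in wild type (log2 fold change -0.89 ± 0.10 SE, adjusted p = 0.000278). The other falls were those of Tbp and Gtf2a1. Gtf2f1, the large TFIIF subunit gene, rose, with 47.5 ± 3.69 CPM in knockout and 25.6 ± 2.37 CPM in wild type (log2 fold change 0.89 ± 0.11 SE, adjusted p = 0.00043). Tbpl1, the TBP-like gene known for its role in spermatids, rose and was low in both genotypes, with 8.16 ± 0.2001 CPM in knockout and 3.04 ± 0.387 CPM in wild type (log2 fold change 1.43 ± 0.18 SE, adjusted p = 0.000559). Gtf2a2, the small TFIIA subunit gene shared by both large forms, had 47.8 ± 1.86 CPM in knockout and 48.7 ± 5.07 CPM in wild type (adjusted p = 0.881).

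Partners of the bHLH and LIM factors included a single strong fall. Of 12 genes 11 were tested, of which 3 rose, 2 fell and 6 did not pass. Over all tested genes 14.9% were called higher and 18.5% lower. The median log2 fold change of the list was 0.17. Tcf4, which encodes an E protein, had 0.729 ± 0.143 CPM in knockout and 6.42 ± 3.07 CPM in wild type (log2 fold change -3.14 ± 0.39 SE, adjusted p = 0.000491). Of the other E protein genes Tcf3 rose, with an adjusted p of 0.0109 that became 0.295 with the GC offsets, and Tcf12 did not pass (0.38). The LIM cofactor genes moved oppositely. Ldb1 rose, with 49.7 ± 5.73 CPM in knockout and 27.7 ± 1.03 CPM in wild type (log2 fold change 0.84 ± 0.11 SE, adjusted p = 0.000585), and Ldb2 fell, with 5.52 ± 0.684 CPM in knockout and 10.5 ± 0.493 CPM in wild type (log2 fold change -0.93 ± 0.16 SE, adjusted p = 0.00289). Id2, an inhibitor of E proteins, rose, with 13.8 ± 2.19 CPM in knockout and 8.46 ± 0.425 CPM in wild type (log2 fold change 0.70 ± 0.16 SE, adjusted p = 0.0103).

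Regulators of FOXO3 moved in both directions. Of 13 genes for KIT, phosphoinositide 3-kinase, AKT and other regulators, 3 rose, 2 fell and 8 did not pass, where 33.4% of all tested genes were called. Their median log2 fold change was 0.02, and it lay between -0.04 and 0.08 over the alternative settings. Akt1 rose, with 150.1 ± 21.3 CPM in knockout and 108 ± 1.87 CPM in wild type (adjusted p = 0.00809), but did not pass with the GC offsets (0.122). Other calls of the list, the rise of Pdpk1 (0.0488) and the falls of Pik3cb (0.0290) and Sirt1 (0.0311), were lost when some single libraries were left out. For Pdpk1 and Sirt1 this held for most libraries. Pik3cb and Sirt1 also did not pass with the GC offsets (edgeR adjusted p of 0.108 and 0.318). Pdpk1 did not pass with library sizes alone (edgeR, 0.0741) or in limma-voom (0.0503). Of 9 FOXO family and target genes 7 were tested, and none rose, 2 fell and 5 did not pass. Among all tested genes 14.9% were called higher and 18.5% lower. The median log2 fold change of these 7 was 0.14, but the list median changed sign between settings. The filter on low counts was applied anew in each fit, so the genes tested can differ from these 7. The list median was 0.06, 0.17 and -0.13 without wild-type replicates 1, 2 and 3. Without knockout replicates 1, 2 and 3 it was -0.05, -0.0028 and -0.17. It was -0.32 with no filter on low counts and 0.30 with the GC offsets. The falls were those of Foxo1 and of Cdkn1b, a cell cycle inhibitor gene, which had 11.3 ± 1.95 CPM in knockout and 16.9 ± 1.10 CPM in wild type (adjusted p = 0.0207) and did not pass with the GC offsets (0.0868) or without any of 3 libraries (0.0525 to 0.0691).

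**Figure D5:**
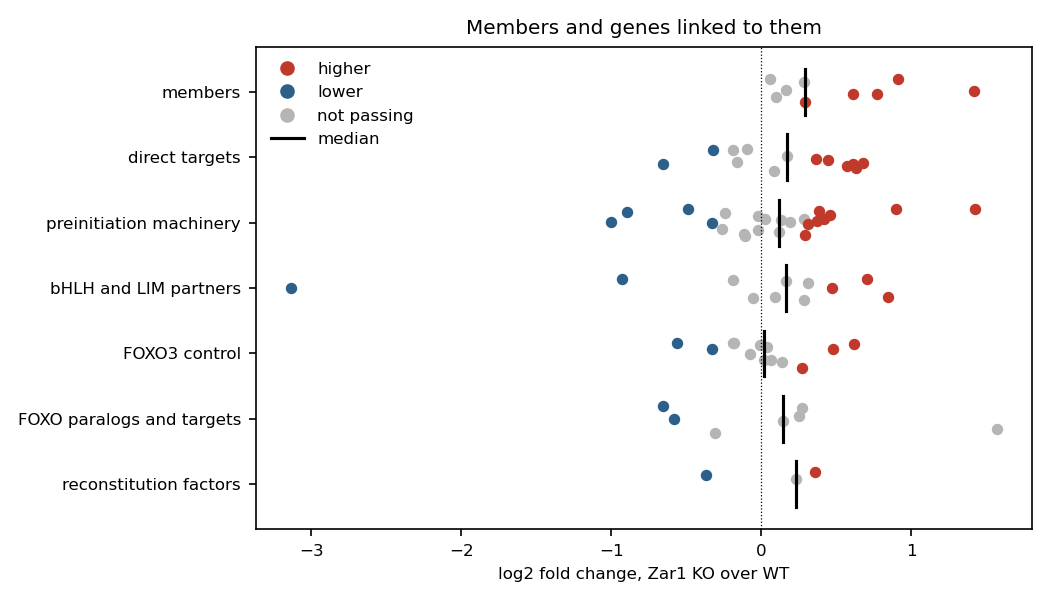
Log2 fold change, Zar1 knockout over wild type, of every tested gene of each list, with a bar at the list median. The members have a median of 0.29 and all lie above 0, while every other list shown has genes on both sides of 0. The oocyte markers, not shown here, had a higher median of 0.333, with 9 of 12 above 0. The members were chosen with earlier results of these data known. Sohlh2 and Tbpl2 turned negative when some single libraries were left out.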

How the data were processed

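RNA of 6 libraries, each a pool of 10 GV oocytes, was measured as raw counts per gene that the authors deposited. The submitters' processing notes name HTSeq 0.13.5, STAR 2.7.8a, cutadapt 2.8 and bcl2fastq 2.20.0.422, with the mm39 build. Which annotation release and strand setting were used is not stated there. Reads outside genes, ambiguous reads and reads with several places were left out of library sizes and made up 4.84% to 5.70%, 4.21% to 4.42% and 13.9% to 15.0% of the reads counted. The exons of the 10 members overlap no other gene in GENCODE M21 (GRCm38), which also gave exonic lengths and GC content (99.74% of tested genes).

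Counts were tested in edgeR 4.0.16 (R 4.3.3) with TMM factors, its default filter on low counts, the quasi-likelihood test and Benjamini-Hochberg adjustment over 16473 genes. Standard errors were derived from F, and intervals (95%) from the fit's degrees of freedom. DESeq2 1.42.0, limma-voom (limma 3.58.1), other scalings and filters, GC and length offsets, a replicate block and each library left out in turn were alternatives. The code was checked on simulated data. Depth, 32126555 to 39148833 counts, puts the members other than Sohlh1 at 295 counts or more, and p-values also carry the spread between pools.

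The members and lists were chosen with earlier results of these data known. Named were all members, Zar1, Zar1l, the paralogs, up to 4 called genes of smallest adjusted p per list and the 5 genes most like Nobox; other names were added after their values were seen. The ratio of Sohlh1 to Sohlh2 was planned but not computed, since Sohlh1 had libraries at 0, so p-values of ratios were adjusted over 4. Some genes of the FOXO3 regulator list are counted but not reported here by name.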

Additional observations from a re-analysis of the deposited data

How the results depend on the processing

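All 5 member rises were kept in every setting except the test against a 1.5-fold change, which left 1, and Foxo3 kept its direction and did not pass in any. Sohlh2 turned to -0.06 without wild-type replicate 3 and -0.14 without knockout replicate 3 (range -0.1414 to 0.238 over the 6 libraries), Tbpl2 to -0.0889 without knockout replicate 3 (to 0.3225 without replicate 1), and Taf4 to -0.0139 with library sizes alone, -0.20 with GC and length offsets with or without the block, -0.045 without wild-type replicate 3 and -0.013 without knockout replicate 1 (up to 0.0688 without wild-type replicate 2). The causes were not tested. The 1.5-fold test called 417 genes higher and 1067 lower, and a threshold of 0.01 called 1171 and 1861. In the lists the 1.5-fold test called, higher and lower, 0 and 0 direct targets, 0 and 0 reconstitution factors, 2 and 2 preinitiation genes, 0 and 1 bHLH and LIM partners, 0 and 0 FOXO3 regulators and 0 lower FOXO genes. At 0.01 the calls were 1 lower direct target, 5 higher preinitiation genes, 1 higher bHLH and LIM partner, 0 lower FOXO3 regulators and 1 lower FOXO gene. Upper-quartile scaling gave 1 lower direct target, 2 higher reconstitution factors (2 also in DESeq2) and 1 lower FOXO3 regulator, and no filter gave 1 lower FOXO3 regulator and 1 higher FOXO gene. GC and length offsets gave 0 lower reconstitution factors, 0 lower FOXO3 regulators, and 2 higher and 1 lower FOXO genes.

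No shared deviation by replicate number was seen. Deviations of same-numbered libraries correlated at -0.009, -0.042 and -0.0252 and others at -0.0201 to 0.0441. These values cannot show whether same-numbered libraries were collected or prepared together. With the replicate block 2078 genes were higher and 2760 lower, against 2448 and 3051 without it, with the same 5 members higher, 1 lower FOXO3 regulator and 1 higher FOXO gene. The block with GC and length offsets, under which Gtf2a1 did not pass (adjusted p = 0.088), gave 2284 and 2354 genes, 0 lower reconstitution factors, 2 lower preinitiation genes, 0 lower FOXO3 regulators, and 1 higher and 1 lower FOXO gene. Leaving out each library in turn gave 1541 to 2509 genes higher and 2285 to 3125 lower, 5 to 6 members higher, 1 to 2 lower direct targets, 5 to 9 higher preinitiation genes, 3 to 4 higher bHLH and LIM partners, 0 to 2 lower FOXO3 regulators, and 0 to 1 higher and 1 to 2 lower FOXO genes. The ratio differences (log2) then ranged from 1.15 to 1.32 for Gtf2a1l, 0.63 to 0.83 for Foxo3, 0.26 to 0.65 for Tbpl2 and 0.14 to 0.37 for Taf4b. The ratios were not computed with GC and length offsets, with which Taf4b had a log2 fold change of 0.44 and Taf4 -0.20. With 3 libraries a group, small differences in members of about 10 CPM, such as Sohlh2 and Tbpl2, stay within the spread.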
